A study of Mus musculus with 3 samples.

Results

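Notch signalling was described through 10 genes in cells from the dura mater, the outermost of the meninges, of mice inoculated with 4T1-DM cells (4T1 is a mammary carcinoma line of the mouse). The genes were chosen by name, of 54532 genes in each file, and all 10 were found: the receptors Notch1, Notch2 and Notch4, the ligands Dll1, Dll4, Jag1 and Jag2, the DNA-binding factor Rbpj, and the target genes Hey1 and Hes1. The groups were PBS, ZOL and ZOL+Ang2, names that the labels do not expand, and all mice carried the 4T1-DM cells, with strain, age and dose not given in the sources used here. Each group was 1 library made from 6 mice pooled, with dorsal dura taken 12 days after inoculation and labelled as cells without CD45 and with CD31 and PDPN, a combination used for lymphatic endothelium. With 1 library per group there was no replicate and no test, so every interval covers counting error only and every difference is between libraries, not between treatments shown to differ.

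Notch receptors are cut when a Delta-like or Jagged ligand on a neighbouring cell binds them, and the freed intracellular part enters the nucleus and turns RBPJ from a repressor into an activator of genes such as those of the Hes and Hey families. In endothelium, DLL4, NOTCH1 and NOTCH4 are known for the choice between tip and stalk cells in sprouting and for arterial fate, with JAG1 as a ligand that competes with DLL4. NOTCH2 and JAG1 are made by many cell types, among them fibroblasts and mural cells.

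The libraries were of unequal depth and make-up. The deposited values went back to 1675532 reads for PBS, 16586760 for ZOL and 9204901 for ZOL+Ang2. Mitochondrially encoded genes held 12.1% of the PBS reads against 1.52% and 1.19%, a hand-made list of predicted gene models (Gm10800, Gm10801 and the like) 22.1% against 1.07% and 3.51%, and genes of odour and pheromone receptors 2.87% against 0.0508% and 0.150%. The lymphatic markers Lyve1 (0 reads in all libraries) and Prox1 (2 reads in PBS and 0 in the others) were nearly missing. Other genes of the 7-gene lymphatic list were read: Mmrn1 had 155, 11.5 and 12.0 CPM (reads scaled to the same library total), Reln 99.6, 8.60 and 7.87 CPM, and Ccl21a 0, 11.1 and 3.88 CPM, in the order PBS, ZOL and ZOL+Ang2. Pdpn, part of the selection, stood at 18.8, 67.5 and 170.6 CPM and Flt4, a receptor of lymphatic endothelium, at 0.538, 70.9 and 23.8 CPM, so the list was mixed, and the cells are called by their selection here. The 14 pan-endothelial markers summed to 2139 CPM for PBS, 3888 for ZOL and 1743 for ZOL+Ang2. Pecam1, the CD31 gene and so part of the selection, had only 2 reads in PBS (1.08 CPM), against 475 and 177 CPM. Erg and Robo4 also had 2 reads each in PBS. Of the 14, 7 were more than 2-fold higher in ZOL than in PBS, 1 was lower and 6 lay within 2-fold. Of 8 mural markers 7 had 0 reads in PBS.

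Sequence before the start site is shown for Notch4 and Dll4, an endothelial receptor and ligand that were both far lower in ZOL+Ang2 than in ZOL. In the 250 bases before the RefSeq start (GRCm38.p6, plus strand, 5′ to 3′), both strands were searched for the RBPJ core TGGGAA and for AGGAA, the core bound by ETS factors such as ERG. Exon bases of GENCODE M21 were left out, which leaves 223 bases for Notch4 and 219 for Dll4, and capitals mark AGGAA or its reverse TTCCT.

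Notch4 (chr17:34564045-34564267): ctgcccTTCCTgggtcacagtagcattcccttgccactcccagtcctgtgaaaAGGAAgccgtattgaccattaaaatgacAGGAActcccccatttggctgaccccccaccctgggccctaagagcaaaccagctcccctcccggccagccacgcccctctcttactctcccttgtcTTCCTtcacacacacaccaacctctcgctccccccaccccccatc
Dll4 (chr2:119325565-119325783): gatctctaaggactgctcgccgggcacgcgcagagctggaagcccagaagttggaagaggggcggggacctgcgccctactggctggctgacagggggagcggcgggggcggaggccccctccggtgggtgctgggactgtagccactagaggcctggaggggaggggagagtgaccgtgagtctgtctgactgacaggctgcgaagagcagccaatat

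The Notch4 window held 4 ETS cores, none overlapping another, and no RBPJ core, and the Dll4 window held neither. Of 32851 RefSeq windows of this length, 60.3% held the ETS core and 21.6% the RBPJ core. Of the 10 members 8 were matched, with 10 windows, of which 5 held the ETS core and 2, both of Rbpj itself, the RBPJ core. The longer RBPJ form GTGGGAA, in 5.42% of all windows, was in none of these and in 6 of 45 windows of other pathway genes (Lfng, Psen2, Spen, Hey2, Hes5 and Hes7). Hes1 and Hey1 were not matched. A match is a run of letters, not a binding site, and no match says nothing about the factor.

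Among the receptors, the transcript that dominated differed between libraries. Notch1 (ENSMUSG00000026923; chromosome 2, 26457903 to 26516663, minus strand, mm10) stood at 15.9 RPKM for PBS (253 reads), 1.27 for ZOL (429 reads) and 0 in ZOL+Ang2, where 3 reads would be 0.0180 RPKM. It was highest in PBS and not detected in ZOL+Ang2. Notch2 (ENSMUSG00000027878; chromosome 3, 98013527 to 98150361, plus strand) stood at 2.81 RPKM for PBS (34 reads), 7.82 in ZOL (1995 reads) and 4.54 in ZOL+Ang2 (574 reads). It was the receptor found in every library at more than a few reads. Notch4 (ENSMUSG00000015468; chromosome 17, 34564268 to 34588503, plus strand), a receptor largely of endothelium, stood at 0.111 RPKM for PBS (1 read), 2.79 in ZOL (533 reads) and 0.0529 in ZOL+Ang2 (5 reads). It was thus well measured in ZOL alone.

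Ratios within a library need no scaling between libraries. Notch1 made up 84.4% of the summed RPKM of the 3 receptors for PBS, 10.7% for ZOL and 0% for ZOL+Ang2. Notch2 took 15.0%, 65.8% and 98.8% and Notch4 0.589%, 23.5% and 1.15% in the same order. Notch3, not a member, was left out of these sums and stood at 0, 1.01 and 1.60 RPKM, so the shares are not of all Notch receptors. The ratio of Notch4 to Notch2 per length was 0.357 in ZOL (95% counting interval 0.324 to 0.393) and 0.0117 in ZOL+Ang2 (0.00377 to 0.0273), intervals that do not overlap. Notch1 to Notch2 was 5.64 in PBS (3.93 to 8.32) and 0.163 in ZOL (0.146 to 0.181).

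The Delta-like ligands were seen almost only in ZOL, while the Jagged ligands were in all 3 libraries. Dll4 (ENSMUSG00000027314; chromosome 2, 119325784 to 119335962, plus strand), the main Delta-like ligand of endothelium, had 0 reads in PBS (3 reads would be 0.695 RPKM), 4.91 RPKM in ZOL (448 reads) and 0.177 in ZOL+Ang2 (8 reads). Dll1 (ENSMUSG00000014773; chromosome 17, 15367354 to 15376872, minus strand), another Delta-like ligand, had 137 reads and 1.37 RPKM in ZOL and 0 reads in the other libraries. For both genes ZOL stood above the other libraries.

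Jag1 (ENSMUSG00000027276; chromosome 2, 137081456 to 137116644, minus strand) stood at 3.98 RPKM for PBS (26 reads), 5.84 in ZOL (806 reads) and 3.78 in ZOL+Ang2 (258 reads). Its counting intervals in PBS (2.60 to 5.84) and ZOL (5.45 to 6.26) overlapped on this scale, so the order of these libraries is not settled by counting. Jag2 (ENSMUSG00000002799; chromosome 12, 112907819 to 112929776, minus strand), the other Jagged ligand, stood at 18.7 RPKM for PBS (146 reads), 4.31 in ZOL (710 reads) and 2.22 in ZOL+Ang2 (181 reads), highest in PBS and lowest in ZOL+Ang2.

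Jag2 made up 82.4% of the summed ligand RPKM for PBS, 26.2% in ZOL and 35.9% in ZOL+Ang2, and Jag1 17.6%, 35.6% and 61.2%. Dll4 took 29.9% in ZOL and 2.87% in ZOL+Ang2. The ratio of Dll4 to Jag1 per length was 0.841 in ZOL (0.747 to 0.945) and 0.0469 in ZOL+Ang2 (at most 0.0938), so the balance of these ligands differed beyond counting error between those libraries. Jag2 to Jag1 was 4.70 for PBS (3.08 to 7.43), 0.737 for ZOL (0.665 to 0.816) and 0.587 for ZOL+Ang2 (0.483 to 0.713).

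**Figure D1:**
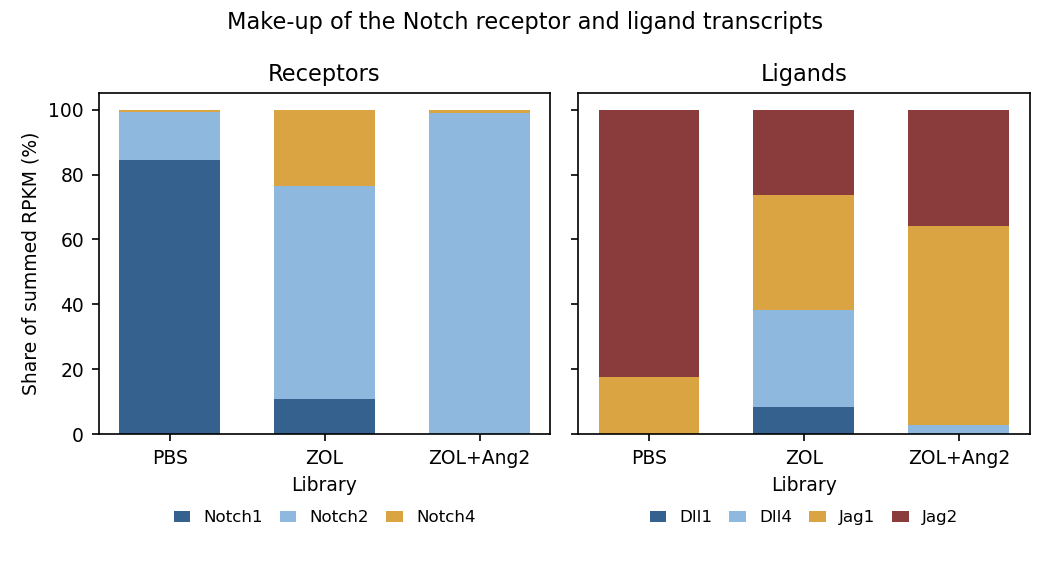
Share of summed RPKM (percent, vertical axis) held by the receptors Notch1, Notch2 and Notch4 (left) and by the member ligands (right) in the PBS, ZOL and ZOL+Ang2 libraries, 1 library each and so without error bars. Notch3, not a member, is left out of the receptor bars and stood at 1.60 RPKM in ZOL+Ang2. Notch1 and Jag2 fill most of the PBS bars (84.4% and 82.4%), Notch4 and Dll4 appear in ZOL (23.5% and 29.9%), and Notch2 holds 98.8% of the receptor bar in ZOL+Ang2.

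Of the nuclear genes, Hes1 was the most abundant member in ZOL and ZOL+Ang2, and Hey1 was close to undetected throughout. Rbpj (ENSMUSG00000039191; chromosome 5, 53466152 to 53657362, plus strand) stood at 1.40 RPKM for PBS (20 reads), 1.90 in ZOL (575 reads) and 6.66 in ZOL+Ang2 (996 reads). It was the single member that was highest in ZOL+Ang2. Hes1 (ENSMUSG00000022528; chromosome 16, 30064384 to 30067796, plus strand), a repressor of the basic helix-loop-helix class, had 0 reads in PBS (3 reads would be 1.31 RPKM), 42.7 RPKM in ZOL (2059 reads) and 26.5 in ZOL+Ang2 (633 reads). Hey1 (ENSMUSG00000040289; chromosome 3, 8663359 to 8667256, minus strand), a related repressor of endothelium, had 2 reads in ZOL and 0 in PBS and ZOL+Ang2, where 3 reads would be 0.820 and 0.0783 RPKM.

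Hes1 did not follow Rbpj: their ratio per length was 22.4 in ZOL (20.4 to 24.6) and 3.98 in ZOL+Ang2 (3.60 to 4.40). In the order of RPKM, Hes1 led ZOL and ZOL+Ang2, with Notch2 next in ZOL and Rbpj next in ZOL+Ang2. The neighbours Dll4 and Jag2, and Dll1 and Notch1, did not differ beyond their intervals in ZOL, nor did Notch2 and Jag1, or Dll4 and Notch4, in ZOL+Ang2. In PBS, Jag2 and Notch1 led, with overlapping intervals, then Jag1, Notch2 and Rbpj, each overlapping its neighbour.

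**Figure D2:**
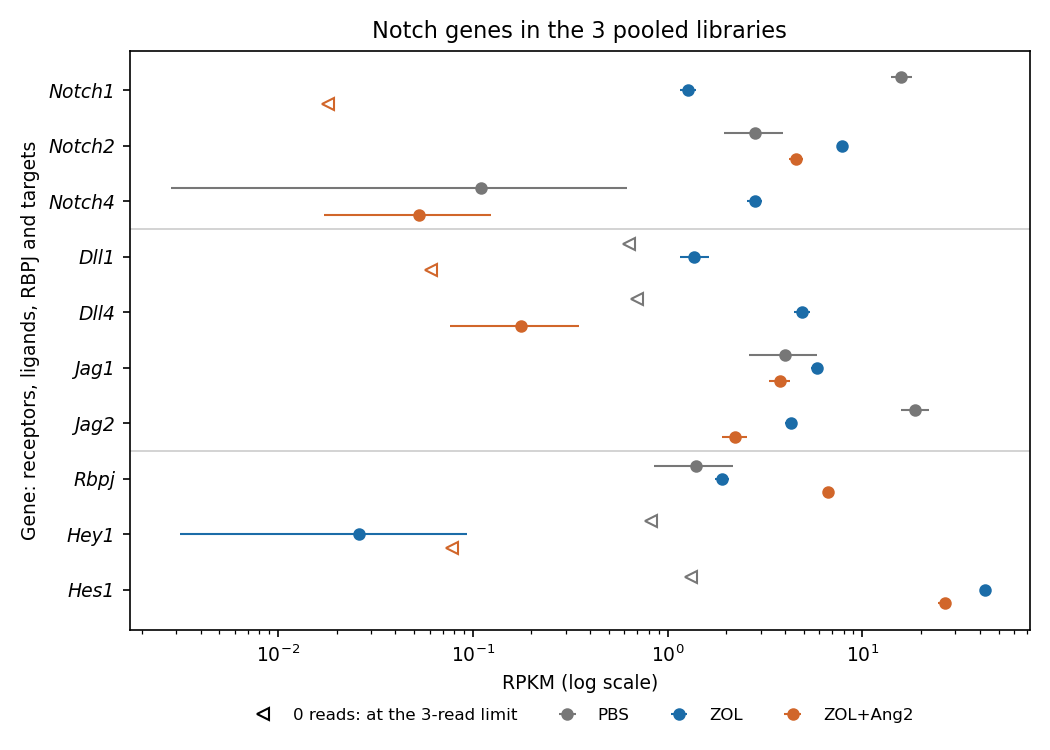
RPKM (log scale) of the 10 Notch genes in PBS (grey), ZOL (blue) and ZOL+Ang2 (orange), with 95% counting intervals as bars and open triangles at the value of 3 reads where a gene had 0 reads. Notch1 runs from 15.9 in PBS to 1.27 in ZOL to 0 in ZOL+Ang2, while Notch4, Dll1, Dll4 and Hes1 have their highest value in ZOL.

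With Ang2 added to ZOL, Notch1, Notch4, Dll1 and Dll4 were far lower and Rbpj was higher. Of 10 members, 9 were lower in ZOL+Ang2 in CPM, Hey1 by no more than 2 reads against 0, and Rbpj was higher, where 57.9% of all genes with a read in either library were lower by any amount. The differences fell into a steep group (Notch1, Notch4, Dll4 and Dll1) and a shallow one (Notch2, Jag1, Jag2 and Hes1). Notch4 was 59.6-fold lower, at 34.0 CPM against 0.570 (interval 25.4 to 184). Dll4 was 31.3-fold lower, at 28.5 CPM against 0.912 (15.7 to 72.9). Notch1 was at least 79.9-fold lower and Dll1 at least 25.5-fold, taking 3 reads in ZOL+Ang2 as the floor for a count of 0.

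In the shallow group the folds lay near 2. Notch2 was 1.94-fold lower (1.77 to 2.13), Jag1 1.75-fold (1.52 to 2.02), Jag2 2.19-fold (1.86 to 2.59) and Hes1 1.82-fold (1.66 to 1.99). Rbpj was 3.10-fold higher, at 113.6 CPM against 36.6 for ZOL (2.80 to 3.44). Rbpj-ps3, a pseudogene copy that can share reads with Rbpj, had 341 reads in ZOL and 71 in ZOL+Ang2. With the copies added, the difference was 2.09-fold (1.91 to 2.28), so the size of the Rbpj difference is uncertain.

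A gene counted as past 2-fold when log2 of the ratio of CPM plus 5, which understates low genes, was at least 1 in size, among genes whose mean over the libraries reached 10 CPM. By that rule 7 of 10 members were measured, of which 2 were lower (Notch1 and Notch4), 1 was higher (Rbpj) and 4 lay within 2-fold. Over all 10942 genes measured, 24.8% were lower and 16.2% higher, so the members' share past 2-fold was close to that of all genes and is no result about them. Their median log2 fold was -0.91 against -0.02 over all genes, but Notch4 passed the filter through ZOL alone, where it was high, so this median is a description. Without the filter, which left out Dll1, Dll4 and Hey1, 4 members were lower and 1 higher, where 8.29% and 4.93% of all 54495 genes were, most of which had no reads.

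Zero counts were common among genes of this abundance. Of 3205 genes at 20 to 50 CPM in ZOL, the range of Notch1, 17.1% had 0 reads in ZOL+Ang2, and of 3450 genes at 5 to 20 CPM, the range of Dll1, 35.5% did. Of genes at 50 to 200 CPM, the range of Numb described further on, 5.62% did. A count of 0 is therefore not shown to be loss of the transcript in the cells.

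**Figure D3:**
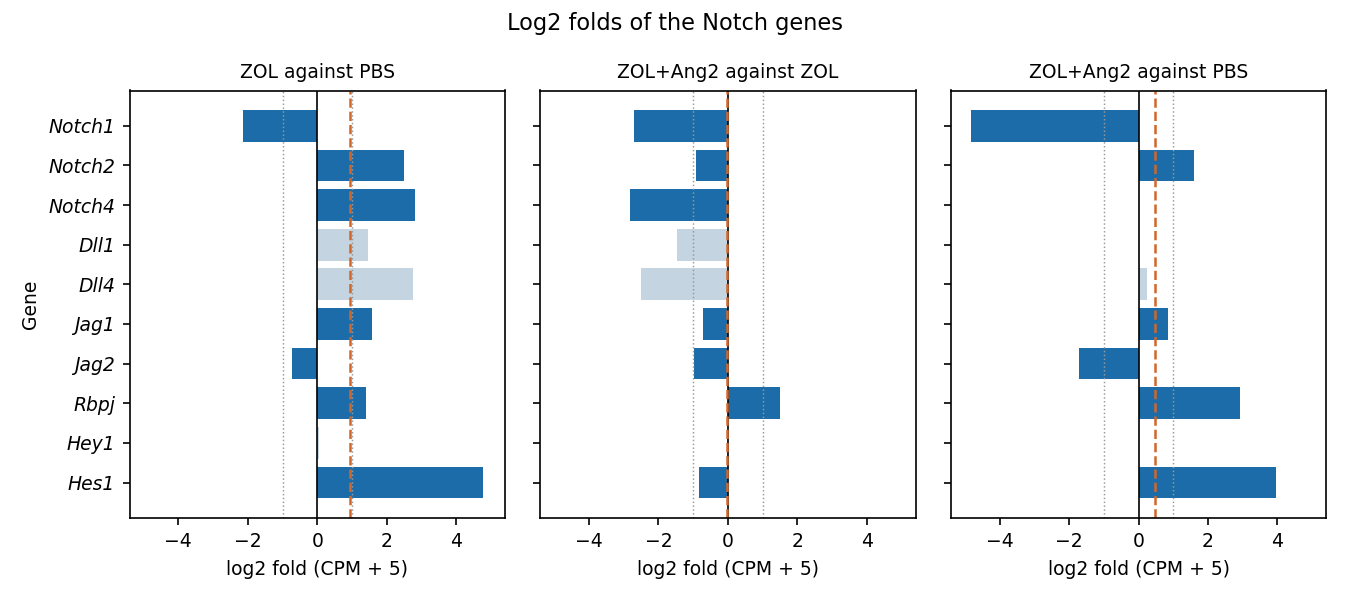
Log2 folds (ratio of CPM plus 5) of the 10 Notch genes in each comparison, with dark bars for genes past the filter of 10 CPM, pale bars for the others, dotted lines at 2-fold and a dashed line at the median of all genes. Notch1, Notch4, Dll1 and Dll4 point left in ZOL+Ang2 against ZOL and Rbpj points right; bars of genes with 0 reads in a library depend on the 5 CPM added.

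Endothelial markers were lower along with the steep group. Of 14 pan-endothelial markers, all measured, 11 were lower in ZOL+Ang2, none was higher and 3 lay within 2-fold, where 24.8% of all genes were lower. Erg and Robo4 passed the filter through ZOL alone, where they were high. The list's sum was 1743 CPM against 3888 in ZOL. Pecam1, the CD31 gene, was 2.68-fold lower (2.53 to 2.83). Erg, an endothelial ETS factor, was 40.9-fold lower (20.6 to 95.2) and Icam2, an adhesion molecule, 24.1-fold lower (17.5 to 34.1), both within the interval of the Dll4 fold. Flt1, a VEGF receptor, and Kdr and Cdh5 lay within 2-fold. In a bulk library, fewer endothelial cells and less RNA per cell cannot be told apart.

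Relative to Pecam1 within each library, Dll4 and Notch4 were lower in ZOL+Ang2 than in ZOL, and Notch2, Jag1 and Hes1 were higher. Dll4 to Pecam1 per length was 0.0972 in ZOL (0.0881 to 0.107) and 0.00831 in ZOL+Ang2 (0.00358 to 0.0164), and Notch4 to Pecam1 0.0552 (0.0505 to 0.0603) and 0.00248 (0.000805 to 0.00581). Notch2 to Pecam1 was 0.155 (0.147 to 0.162) and 0.213 (0.193 to 0.235), and Jag1 to Pecam1 0.116 (0.107 to 0.124) and 0.177 (0.155 to 0.202). Between these libraries Dll4 and Notch4 thus differed by more than Pecam1, and Notch2, Jag1 and Hes1 (0.845 and 1.24 relative to Pecam1) by less.

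Arterial markers were mixed in direction. Efnb2, an arterial ephrin ligand and Notch target, was 5.67-fold higher in ZOL+Ang2, at 393 reads against 124, and Bmx, an arterial kinase, 5.27-fold higher (4.14 to 6.76). Efnb2 passed the filter through ZOL+Ang2 alone, where it was high. Sox17 and Unc5b lay within 2-fold, Gja4 was lower, as Dll4 and Notch4 were, with 67 reads in ZOL and 0 in ZOL+Ang2, and Gja5 had 0 reads in all libraries. The 6 arterial markers summed to 280 CPM for PBS, 90.6 for ZOL and 208 for ZOL+Ang2. Of the 5 venous markers, Ackr1 was 5.21-fold and Vwf 3.90-fold lower, while Ephb4 (1.86-fold lower) and Nr2f2 (1.30-fold higher) lay within 2-fold. Selp, under the filter, had 373 reads in ZOL and 0 in ZOL+Ang2. The venous list summed to 1047, 1418 and 437 CPM.

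Markers of other cells also differed. The 6 fibroblast markers were all higher in ZOL+Ang2 and summed to 343 CPM for PBS, 454 for ZOL and 10780 for ZOL+Ang2, led by Col1a1 and Col1a2. Of 9 myeloid markers 6 were measured and all of these were higher, with sums of 1175, 124 and 1943 CPM, among them Ptprc, the CD45 gene that the selection excluded, while Cd68 and Itgam had 0 reads in each library. Ptprc itself was highest in PBS, at 155.5 CPM against 25.1 in ZOL and 76.1 in ZOL+Ang2. C1qb, one of the 6, passed the filter through ZOL+Ang2 alone (0, 0.127 and 255 CPM). Haemoglobin and haem genes (5 markers) summed to 191, 5.54 and 25143 CPM. Of 8 mural markers 5 were measured, 2 higher and 2 lower, with sums of 2.69, 840 and 361 CPM, of which Kcnj8 had 0 reads in each library. Cspg4, one of the higher, passed the filter through ZOL+Ang2 alone, and Myh11, one of the lower, through ZOL alone. The 6 epithelial and carcinoma markers, led by Krt8 and Krt18, summed to 542, 5302 and 4820 CPM. Lymphocyte markers (5) summed to 266, 0.446 and 0 CPM, osteoblast markers (5) to 0, 305 and 78.1 CPM, and Schwann and neural markers (4) to 38.7, 9.75 and 4.33 CPM. The part of any of these cells, endothelial ones included, in the values of the Notch genes was not tested.

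**Figure D4:**
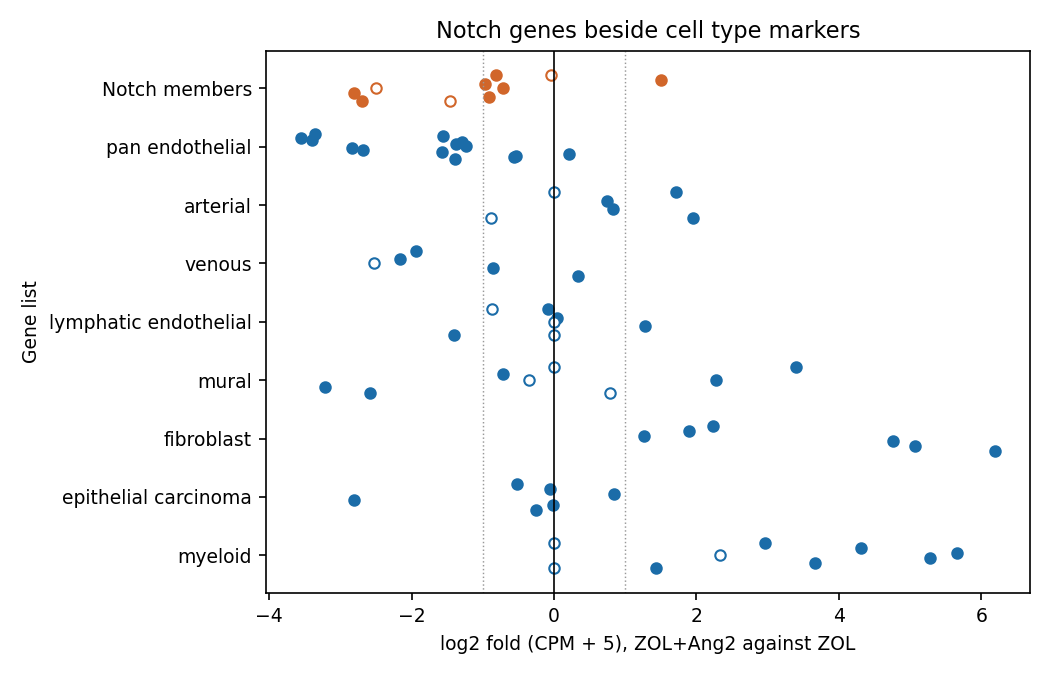
Log2 folds (ratio of CPM plus 5) in ZOL+Ang2 against ZOL for the 10 Notch genes (orange) and for cell type markers (blue), filled where the gene passed the filter of 10 CPM and open where it did not, with dotted lines at 2-fold. Of the 14 pan-endothelial markers 11 lie left of -1, and all 6 fibroblast markers lie right of 1.

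Other genes of the pathway showed no common direction in this comparison. Of 45 genes in 8 roles 29 were measured, of which 7 were higher in ZOL+Ang2, 8 were lower and 14 lay within 2-fold. Their median log2 fold was -0.35. Over all genes measured 16.2% were higher and 24.8% lower, so these counts are a description. Of the genes past 2-fold, Lfng, Dtx2 and Maml1 passed the filter through ZOL+Ang2 alone and Numb and Ctbp1 through ZOL alone, where each was high. Of 7 measured genes of the proteases that cut the receptors, 6 lay within 2-fold on the log2 scale of CPM plus 5. Among the 6 were Adam10, the main ectodomain protease (132 CPM with ZOL against 65.2 with ZOL+Ang2, a 2.02-fold ratio before the 5 CPM are added), and nicastrin (Ncstn, 100.1 and 93.0 CPM), a subunit of gamma-secretase. Aph1b, another subunit and under the filter, had 396 reads in ZOL and 1 in ZOL+Ang2, a 221-fold difference (39.5 to 8759).

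The Fringe glycosyltransferases, which modify the receptors and bias them between Delta-like and Jagged ligands, differed among themselves. Lfng had 3 reads in ZOL and 394 in ZOL+Ang2, a 235-fold difference (79.9 to 1145). Rfng, under the filter, had 404 reads in ZOL and 0 in ZOL+Ang2 (at least 75.2-fold lower). Mfng, the most abundant, had 174 CPM with ZOL against 99.2 with ZOL+Ang2 and lay within 2-fold.

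The Mastermind coactivators, which join RBPJ and the cut receptor, were split as well. Maml1 was 13.2-fold higher in ZOL+Ang2, at 50.3 CPM against 3.82, and Maml3 4.37-fold higher (3.82 to 5.01), whereas Maml2 had 594 reads in ZOL and 2 in ZOL+Ang2. Snw1, a coactivator and splicing factor, was 6.49-fold lower (5.44 to 7.80). Of the corepressors, Spen was 3.35-fold higher (2.90 to 3.89) and Kdm5a, the most abundant, stood at 120 and 103 CPM.

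Genes that bear on the life of the receptor lay far apart. Numb, an endocytic inhibitor of Notch, had 1378 reads in ZOL and 0 in ZOL+Ang2 (at least 257-fold lower). Dtx2, a Deltex ubiquitin ligase, was 15.1-fold higher (11.3 to 20.6) and Fbxw7, which marks the cut receptor for breakdown, 4.66-fold higher (4.09 to 5.32). Of the other targets, Heyl, known from mural cells, was 3.21-fold higher (2.74 to 3.78), Nrarp had 84 and 81 reads, and Hes5 and Hes7 had 0 reads in each library. Hey2, a target of arterial endothelium and heart, had 34 reads in PBS (18.3 CPM) and 0 in the other libraries, at least 95.7-fold lower in ZOL and at least 53.5-fold lower in ZOL+Ang2. Hey2 was under the filter, and how many genes at this PBS level had 0 reads in the other libraries was not counted. Notch3, the mural receptor, had 0 reads in PBS and was 1.41-fold higher in ZOL+Ang2 than in ZOL (1.13 to 1.75), and Mib1, a ubiquitin ligase that readies ligands for endocytosis, had 27.9 CPM with ZOL against 59.0, a 2.11-fold ratio (1.86 to 2.41) that lay within 2-fold once 5 CPM were added.

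**Figure D5:**
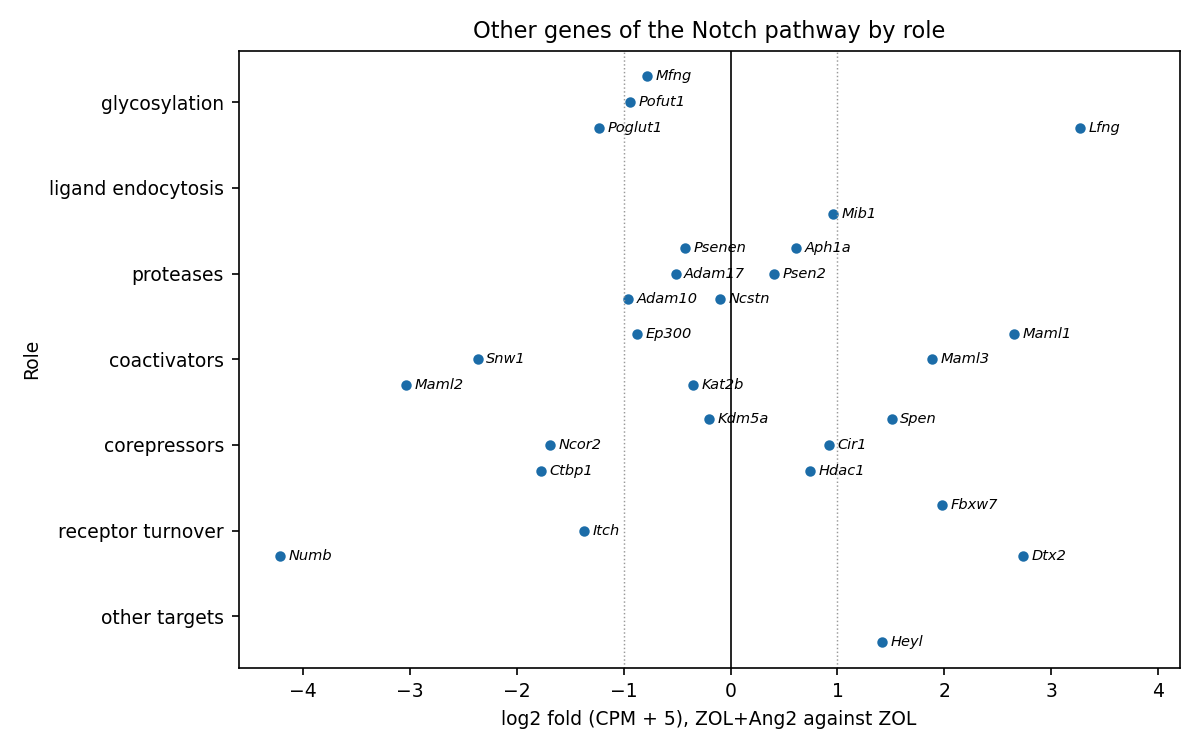
Log2 folds (ratio of CPM plus 5) in ZOL+Ang2 against ZOL of other pathway genes past the filter of 10 CPM, by role, with dotted lines at 2-fold and 1 gene not shown. The proteases shown lie within 2-fold, and Lfng at 3.27 and Numb at -4.21 lie farthest out. Lfng passed the filter through ZOL+Ang2 alone and Numb through ZOL alone.

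Under ZOL alone, set against PBS, Notch1 was lower and most other members were higher. Notch1 was 4.98-fold lower in ZOL, at 27.3 CPM against 136 (4.25 to 5.83). Notch2 was 6.95-fold higher (4.95 to 10.1), Jag1 3.67-fold higher (2.49 to 5.65, from 26 PBS reads) and Rbpj 3.40-fold higher (2.18 to 5.61, from 20 PBS reads). Jag2 was 1.74-fold lower (1.44 to 2.08) and lay within 2-fold. Notch4, with 1 PBS read, was 63.1-fold higher (11.3 to 2497). With 0 reads in PBS, Hes1 was at least 81.2-fold higher, Dll4 at least 17.7-fold and Dll1 at least 5.41-fold.

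By the rule above, 5 of 7 measured members were higher and 1 was lower, against 49.2% and 29.4% of all genes, with a median log2 fold of 1.57 against 0.94 over all genes. Notch4, one of the 5, passed the filter through ZOL alone, where it was high, so count and median are descriptions. Without the filter 7 of 10 were higher and 1 lower, against 13.5% and 11.7% of all 54495 genes. Of all genes only 16142 had a read in PBS and 18592 in ZOL, and a gene without reads in both cannot be called. Folds against PBS depend on scaling. Among members past the filter with the deposited RPKM scaling, Hes1 and Notch2 were more than 2-fold higher and Notch1 and Jag2 more than 2-fold lower. The median over all genes was then -0.83. Notch4 (0.111 RPKM in PBS and 2.79 in ZOL) and Dll4 (0 and 4.91) were under the filter at that scaling and so not counted. Of 3329 genes at 50 to 200 CPM in ZOL, the range of Hes1, 22.4% had 0 reads in PBS, and of those at 20 to 50 CPM, the range of Dll4, 36.4% did, as did 49.2% of those at 5 to 20 CPM, the range of Dll1. Among the other pathway genes, 16 of 29 measured were higher, Numb and Ctbp1 having passed the filter through ZOL alone, and 2 were lower. Of those measured, Mfng (174 CPM against 0.538) and Ncstn (100.1 against 1.08) were highest, and Psen2, a gamma-secretase gene, was lowest (11.1 CPM against 200.7), followed by Fbxw7 (20.3 against 64.0).

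ZOL+Ang2 against PBS shares a library with each comparison above. Notch1 was at least 398-fold lower and Jag2 3.81-fold lower in ZOL+Ang2 (3.04 to 4.76). Rbpj was 10.6-fold higher (6.80 to 17.4), Notch2 3.58-fold (2.53 to 5.22) and Hes1 at least 44.7-fold. The Notch2 log2 fold of 1.60 was 0.61 under the deposited RPKM scaling, within 2-fold. Jag1 was 2.10-fold higher (1.40 to 3.28), within 2-fold by the rule, with a log2 fold that turned to -0.06 under the deposited RPKM scaling, while Notch4 had 1 and 5 reads and Dll4 0 and 8. In all, 3 of 7 measured members were higher and 2 lower, against 44.2% and 33.1% of all genes. Without the filter 3 of 10 were higher and 2 lower, against 11% and 12.6% of all 54495 genes. Of all genes only 16142 had a read in PBS and 15713 in ZOL+Ang2. Of genes at 50 to 200 CPM in ZOL+Ang2, as Hes1 was, 23.3% had 0 reads in PBS. Among the other pathway genes, Ncstn and Mfng were highest here too, at log2 folds of 4.01 and 4.23, and Psen2 and Maml2 lowest, at -3.27 and -2.92.

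By distance of log2(CPM plus 5) over the 3 libraries, the genes nearest to Notch2, the member with the highest mean CPM, were Nfic, Ppp1r12a and Lpcat1, at distances of 0.13 to 0.30. Nearest to Hes1 were Sbds, Mrpl28 and Nploc4, at 0.11 to 0.15, each with 0 reads in PBS. Of 9381 genes compared, 14 lay within 0.5 of Notch2 and 92 within 0.5 of Hes1, so a likeness over 3 libraries is easily met.

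Exons of some members overlap other genes, with the use of strand in counting not given in the sources used here. Dll1 shares 20.6% of its exon bases with the antisense gene A930024N18Rik (4 reads in ZOL), Notch1 shares 7.50% with 0610009E02Rik (51 reads in ZOL) and Dll4 shares 5.56% with Gm14207 (63 reads in ZOL). Notch2 shares 5.02% with Gm42820 on its own strand, which had 0 reads in each library. All 3 antisense genes had 0 reads in PBS and ZOL+Ang2, and without strand their reads cannot be told from those of their partners.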

How the data were processed

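RNA of selected dural cells from 6 mice per group was amplified at full length and made into 1 library per group (PBS, ZOL, ZOL+Ang2), per the labels' protocols. The deposited values are RPKM per gene as the authors made them. The submitters' processing notes name fastp, HISAT2 2.2.1, featureCounts 2.0.6 and mm10, with no role stated, with the library total, annotation, strand and mate handling not given in the sources used here. RPKM times GENCODE M21 exon length came in equal steps per library. The tests had been laid out for reads, so the RPKM were taken back to reads: dividing by the step gave whole reads, within 0.01, for 96.9%, 96.4% and 96.2% of values above 0 and for all 10 members. Of 54532 genes, 37 had no length there and were left out. The reads sum to 1.50, 0.701 and 0.785 times the totals that the steps imply.

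Scaling to CPM used TMM factors (trims 30% and 5%; 1.11, 0.946 and 0.953). The 10942 genes whose mean reached 10 CPM were compared with a prior of 5 CPM. Folds are ratios of CPM without prior, with exact 95% binomial intervals conditional on both counts, and intervals of levels are exact Poisson. A count of 0 was set to a floor of 3 reads per library in bounds. Amplified reads carry no molecular identifiers, so intervals and floors cover counting error only, with reads taken as independent. Of recovered counts from 1 to 40, 61.0% were even for PBS, 53.2% for ZOL and 51.0% for ZOL+Ang2. Whether some reads were counted in pairs, which would make the intervals too narrow, was not tested. No test was possible. The steps were tested on simulated reads. Members and lists were chosen with earlier results of these data known. Pathway genes named are the 2 highest and 2 lowest of each comparison and the most abundant of each role, and further ones were chosen after their values were seen, as were the promoters. Counts of Notch3, Mib1, Neurl1a, Dtx4, Acta2, Epcam and Csf1r did not come out whole and were rounded. Python 3.11.15, numpy 2.4.6, scipy 1.17.1 and pandas 2.3.3 were used. Alternatives were other scalings, filters, a prior of 1 CPM and thinning. For 1 pathway gene, counted in the totals, values are not reported here.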

Additional observations from a re-analysis of the deposited data

How the results depend on the processing

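Counts of members past 2-fold were recomputed under 7 alternatives, and for ZOL+Ang2 against ZOL also without the PBS library, chosen after seeing the data, which gave 3 lower (Notch1, Notch4 and Dll4) and 1 higher. In ZOL against PBS, the 5 higher members became 2 with median-of-ratios factors, 2 with the deposited RPKM scaling, 3 with a filter of 50 CPM and 3 after thinning to 1675532 reads, and the 1 lower member became 2 with either scaling and after thinning. In ZOL+Ang2 against ZOL, the 2 lower members became 1 with median-of-ratios factors, the RPKM scaling, thinning or the filter of 50 CPM, 4 with no filter (adds Dll1 and Dll4), 3 with a prior of 1 CPM (adds Jag2) and 3 without satellite, mitochondrial and chemoreceptor genes (adds Dll4). In ZOL+Ang2 against PBS, the 2 lower members became 1 with the filter of 50 CPM, and the 3 higher became 2 with the RPKM scaling (without Notch2) and 4 with a prior of 1 CPM. Fewer or more genes tested account for the filter's effect. Notch4 also fell under the filter, and so was not counted, with median-of-ratios factors, the RPKM scaling and thinning. Its loss from these counts is therefore not a fold within 2-fold. In deposited RPKM it still stood at 2.79 in ZOL and 0.0529 in ZOL+Ang2. Dll4, under the filter as reported, was added where it passed or where no filter was used. For the other changes the cause was not tested. Of the members' single folds under these settings, 104 moved by less than their counting interval and 45 by more, and no fold past 2-fold changed sign. The 104 include the folds with no filter and with the filter of 50 CPM. A filter cannot move a fold, so the 104 overstate how stable the folds were. Scaling shifts all genes against PBS: the median log2 fold of ZOL was 0.94 as reported, -0.17 with median-of-ratios factors, 0.06 after thinning and -0.83 with the RPKM scaling. Of genes past 2-fold, 62.6% were higher in ZOL than PBS as reported, 47.3% with median-of-ratios factors, 50.9% after thinning and 39.9% with the RPKM scaling, and for ZOL+Ang2 57.1%, 46.0%, 47.9% and 39.0%. No paired analysis was possible because each group was 1 library. PBS, the shallowest library, limits what a count of 0 can show.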
